A study of Mus musculus with 4 samples.

Results

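Lipoprotein lipases and the proteins that remodel plasma lipids were examined in cultured mouse hepatocytes given an agonist of the liver X receptors (LXR). The genes were Lpl, Lipc, Lipg, Lipa, Angptl4, Gpihbp1, Pltp, Lcat and Apom, and every probe other than a control that carries one of these gene names was taken. This gave 10 probes for the 9 genes, and 8 of the 9 genes, all but Lipg, had a probe bright enough to be tested among 24637 genes and named features. Lpl had 2 probes and each other gene had 1.

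The cells were hepatocytes from mice labelled bl6, grown with 10% fetal bovine serum and then held overnight in 0.5% serum. During that night all cultures also received 5 µM simvastatin, which blocks an early step of cholesterol synthesis, and 100 µM mevalonic acid, the product of the blocked step. One group was given 1 µM GW3965, a synthetic LXR agonist, and the other its solvent DMSO, so both groups carry the statin, the mevalonic acid and the low serum. Total RNA of each of 2 replicates a group, lettered a and b, was read on its own 1-colour Agilent array. Whether a and b stand for separate animals or cultures is not stated in the labels, so p-values measure the spread between these samples, which may be technical.

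Lipoprotein lipase, hepatic lipase and endothelial lipase are secreted relatives that act on lipoproteins at the vessel wall. Lipoprotein lipase mainly splits the triglycerides of chylomicrons and very low density lipoproteins, and its products feed the pool of high density lipoprotein (HDL), which transfer proteins and esterifying enzymes then reshape. LXR are nuclear receptors for oxysterols, and Lpl and Pltp are known LXR targets in mouse liver, so the comparison asks how these genes stood after the agonist.

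The short oligonucleotides on the array are what each value rests on. The first 30 of 60 bases are shown for Lpl, whose probes both enter the results, and for Lipc, whose probe crosses an intron. All are in lower case, 5′ to 3′, as the array files give them.
Lpl, brighter probe: gaacaccaacccacatgcaaaaccccacaa
Lpl, dimmer probe: cgaggtttccacaaataaaacctactcctt
Lipc: tggaactctacaaacacattgcagagcatg
On build mm9 the brighter Lpl probe lies at chr8:71430267-71430326 on the plus strand and the dimmer one at chr8:71425050-71425109, so that their starts are 5217 bases apart. The Lipc probe of 60 bases spans 3677 bases, chr9:70660699-70664375 on the minus strand, and so joins parts of the transcript that an intron separates in the genome. The G and C content was 43.3% for the brighter Lpl probe, 45.0% for the dimmer one and 45.0% for the Lipc probe. Exon and UTR annotation of mm9 was not used here.

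Of 55681 probes, 64.1% and 69.1% were well above background on GW3965 replicates a and b, and 62.5% and 65.2% on DMSO replicates a and b, by the scanner software's own call. All 10 hepatocyte markers were well above background on all 4 arrays. So were all 10 endothelial markers, while markers of other cells were seen in part, and the macrophage marker Timd4 was well above background on 0 arrays. Values below are log2 processed signals minus the array's 75th percentile, so that 0 is the level of that percentile, and each difference is GW3965 minus DMSO with its SE from limma, a linear model fitted across all genes. Adjusted p-values are limma's after Benjamini-Hochberg correction over all 24637 genes. The 75th percentile itself was 510 and 674 signal units on GW3965 replicates a and b and 545 and 605 units on DMSO replicates a and b.

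Known LXR targets outside the group served as a check of the treatment label, which reads LXR against GW3965 and was taken to mean the agonist. Abca1, which exports cholesterol to apolipoprotein A-I, had 3.31 and 3.85 in GW3965 cells, against 1.46 and 0.55 in DMSO cells. Abcg1, which exports cholesterol to HDL, had 2.89 and 3.42 in GW3965 cells, against 1.42 and 0.95 in DMSO cells. Srebf1, which encodes a transcription factor of lipid synthesis, had 0.37 and 0.43 in GW3965 cells, against -0.96 and -0.72 in DMSO cells. The groups did not overlap in any of these 3 genes, GW3965 being the higher, and the differences were 2.58 ± 0.39, 1.98 ± 0.29 and 1.24 ± 0.20 for Abca1, Abcg1 and Srebf1 in turn. The adjusted p of each was 1.00 by limma, and 0 of 24637 genes passed an adjusted p of 0.05 (0%). With 2 arrays a group, an exact two-sided permutation test cannot go below p = 0.333.

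None of the 8 measured lipase and remodelling genes passed either. At an unadjusted p of 0.05, 0 of 8 passed by limma, against 203 of all genes, or 0.824%. The GW3965 arrays both exceeded the DMSO arrays in 0 of 8 genes, against 9.41% of all genes, and both were lower in 0 of 8, against 6.55%. Those shares depend on the scaling, since both-above genes made up 59.0% of the genes with groups apart here and 35.8% when each array was centred on its median instead. For the 8 genes the groups overlapped under the 75th percentile, under quantile normalization, under median centring and under normexp background correction alike. The mean was higher in GW3965 cells for 6 genes and lower for 2, while 48.5% of all genes had the higher mean there. That share stands beside the counts of higher means in the lists and markers below as well. The median difference was 0.10 on the log2 scale, against -0.006 over all genes. With 1 array left out, the median of the 8 genes was 0.34 without GW3965 b and 0.41 without DMSO a. It was -0.19 without GW3965 a and -0.21 without DMSO b. Each such fit sets unequal numbers of a and b arrays against each other. Replicate b was lower than a in both groups for 7 of the 8 genes. These values therefore mix treatment and replicate letter, and do not test the direction of the median.

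**Figure D1:**
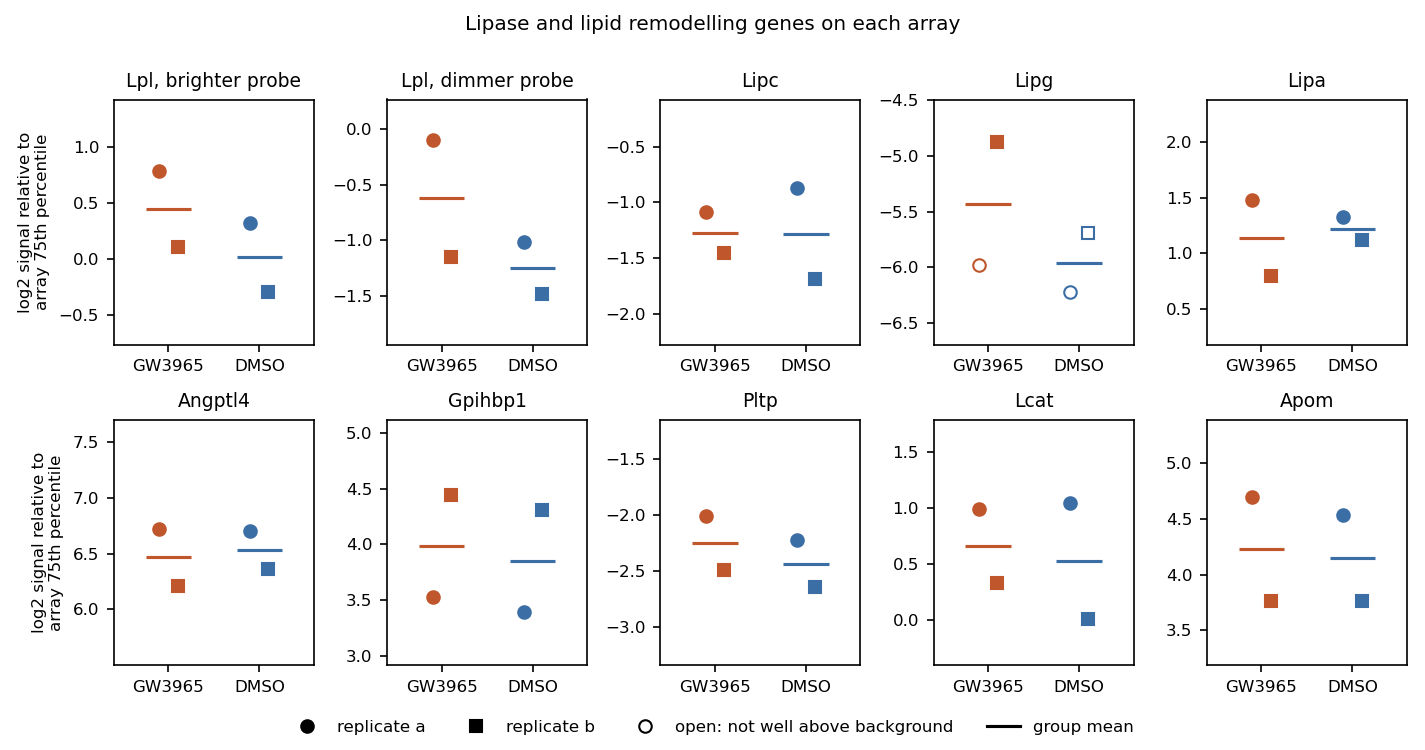
Scaled log2 signal (vertical axis, 0 is the array's 75th percentile) of each lipase and remodelling probe on the 4 arrays, with GW3965 left of DMSO for each probe, one point per array and a bar at the mean. The points of both groups overlap for every probe in this scaling, and the open symbols mark the 3 of 4 Lipg arrays not well above background (scaled log2 -5.98 and -4.88 in GW3965 cells, against -6.22 and -5.70 in DMSO cells).

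Lpl, whose product clears triglyceride-rich lipoproteins, showed the widest difference of the 8. Its brighter probe had 0.79 and 0.11 in GW3965 cells, against 0.33 and -0.30 in DMSO cells. The means were 0.45 ± 0.48 in GW3965 cells and 0.01 ± 0.44 in DMSO cells (SD, n = 2 each), and GW3965 replicate b lay between the DMSO arrays. The difference was 0.44 ± 0.35, or 1.35-fold, with a 95% interval of -0.48 to 1.35 in the limma fit. Its adjusted p by limma was 1.00. That interval, from a fit without the replicate letter, holds no change as well as a difference as large as that of Srebf1. With the replicate letter added to the model the SE was 0.13 and the interval no longer held 0. That fit leaves 1 residual degree of freedom, and limma's SE draws on the spread of all genes. It ran only from 0.13 to 0.16 over the 8 genes, and so is no precision measured for Lpl alone. The adjusted p of Lpl by limma was then 0.711, and the labels do not say what the letter marks.

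The dimmer Lpl probe had -0.10 and -1.15 in GW3965 cells, against -1.02 and -1.48 in DMSO cells. Here too GW3965 replicate b lay between the DMSO arrays, and the difference was 0.63 ± 0.41, or 1.54-fold, in a limma fit of 35478 probes of which 0% passed an adjusted p of 0.05 (adjusted p = 1.00 by limma, 95% interval -0.44 to 1.70). Both probes thus had the higher mean in GW3965 cells. Within an array the brighter probe minus the dimmer one was 0.89 and 1.25 in GW3965 cells and 1.34 and 1.18 in DMSO cells, so the separation was narrowest on GW3965 replicate a. Both probes read the same samples and are not replicates of the treatment.

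The arrays of each Lpl probe had the same order under the 75th percentile, quantile normalization, median centring and normexp. The order was different only before any scaling. Before scaling, the brighter probe had a processed signal of 879.6 and 725.9 units in GW3965 cells, against 682.7 and 490.8 units in DMSO cells, with no overlap. The dimmer Lpl probe and the Pltp probe likewise did not overlap before scaling. The share of all probes without overlap before scaling is not given, so this is a description and no result about these genes. GW3965 replicate b, whose Lpl value moved among the DMSO arrays, is the array with the highest 75th percentile.

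Lipc encodes hepatic lipase, which hydrolyses triglycerides and phospholipids of remnants and HDL and is made mainly by hepatocytes. It had -1.09 and -1.46 in GW3965 cells, against -0.88 and -1.69 in DMSO cells. Both GW3965 arrays lay inside the span of the DMSO arrays. The difference was 0.01 ± 0.34, with a 95% interval of -0.89 to 0.90, and it took the opposite sign under 3 other scalings or background corrections.

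Lipg encodes endothelial lipase, a phospholipase that acts mainly on HDL. Its probe, at chr18:75099629-75099688 of mm9, had processed signals of 8.06 and 22.9 units in GW3965 cells, against 7.30 and 11.7 units in DMSO cells. It was well above background on 1 of 4 arrays, GW3965 replicate b, and was therefore not tested. No fold is given, since GW3965 replicate a was not well above background and read below DMSO replicate b after scaling.

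Lipa encodes lysosomal acid lipase, which splits cholesteryl esters and triglycerides after uptake. Its probe, at chr19:34567717-34567776 of mm9, had 1.48 and 0.80 in GW3965 cells, against 1.32 and 1.12 in DMSO cells, and the GW3965 arrays lay on either side of the DMSO arrays. The difference was -0.08 ± 0.29, with a 95% interval of -0.85 to 0.68.

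Angptl4 and Gpihbp1 act on lipoprotein lipase from outside. The Angptl4 probe lies at chr17:33911880-33911939 of mm9. Angptl4, a secreted protein that inactivates lipoprotein lipase and a known target of the fatty acid receptors called PPARs, had 6.72 and 6.21 in GW3965 cells, against 6.71 and 6.36 in DMSO cells. Its processed signal, 53798.5 and 49974 units in GW3965 cells and 56874 and 49733 units in DMSO cells, was not called saturated on any of the 4 arrays. The difference was -0.07 ± 0.27, with a 95% interval of -0.77 to 0.64, the narrowest reach upward among the 8 genes.

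Gpihbp1 anchors lipoprotein lipase to capillary endothelium and is known as an endothelial gene. Its probe, at chr15:75428484-75428543 of mm9, had 3.52 and 4.44 in GW3965 cells, against 3.40 and 4.31 in DMSO cells. The arrays sorted by replicate letter and not by treatment, with both b arrays above both a arrays. The difference was 0.13 ± 0.46, with a 95% interval of -1.07 to 1.33.

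Pltp, Lcat and Apom belong to the remodelling of HDL, and their probes lie on mm9 at chr2:164665022-164665081, chr8:108463857-108463916 and chr17:35267047-35267106 in that order. Pltp, the phospholipid transfer protein that moves phospholipid from triglyceride-rich particles to HDL, had -2.01 and -2.49 in GW3965 cells, against -2.23 and -2.65 in DMSO cells. The values alternated between the groups, with GW3965 replicate a highest and DMSO replicate b lowest. The difference was 0.19 ± 0.28, or 1.14-fold, with a 95% interval of -0.53 to 0.91. The adjusted p was 1.00 by limma.

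Lcat, which esterifies cholesterol on HDL, had 0.99 and 0.32 in GW3965 cells, against 1.05 and 0.01 in DMSO cells. Both GW3965 arrays lay inside the span of the DMSO arrays, and the difference was 0.13 ± 0.44 (95% interval -1.02 to 1.28). Apom, the HDL apolipoprotein that carries sphingosine 1-phosphate, had 4.70 and 3.76 in GW3965 cells, against 4.53 and 3.77 in DMSO cells. The GW3965 arrays lay just outside the DMSO arrays on both sides, and the difference was 0.08 ± 0.43 (95% interval -1.05 to 1.22).

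**Figure D2:**
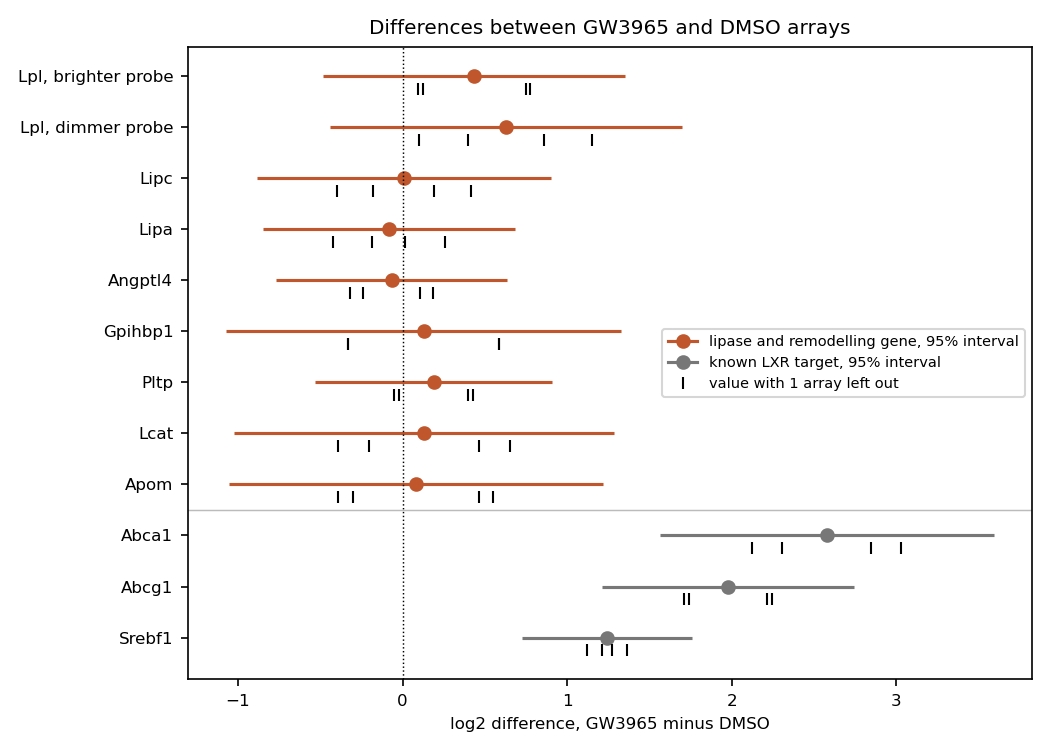
Log2 difference, GW3965 minus DMSO (horizontal axis), of each tested lipase and remodelling probe and of 3 known LXR targets, with 95% intervals from limma and ticks for the value with 1 array left out. Every lipase and remodelling interval holds 0, while those of Abca1, Abcg1 and Srebf1 start at 1.56, 1.21 and 0.73.

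Across the 8 genes the gap between the arrays of a treatment was wider than the difference between the treatment means. The measures are unlike, since means vary less than single arrays and a gap shared by both groups cancels between the means. The same comparison over all genes is not given. The median absolute difference between the treatments was 0.11, while the median absolute gap between replicates b and a was 0.67 in GW3965 cells and 0.70 in DMSO cells. In 0 of 8 genes was the gap of either group smaller than the difference between treatments. Replicate b was lower than a in both groups for 7 of 8 genes, against 31.8% of all genes, and higher in both for Gpihbp1, as for 43.4% of all genes. The gap of Gpihbp1 was 0.92 in both groups, and those of the other genes were -0.37 to -0.94 in GW3965 cells and -0.20 to -1.04 in DMSO cells.

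Cell type markers moved with the replicate letter as well. All 10 hepatocyte markers were lower on replicate b in both groups, with median gaps of -0.94 in GW3965 cells and -1.004 in DMSO cells. Their summed linear signal, in units of the array's 75th percentile, was 2626 and 1506 in GW3965 cells and 2442 and 1756 in DMSO cells. Of 10 endothelial markers, 8 were higher on replicate b in both groups, with median gaps of 0.93 in GW3965 cells and 0.76 in DMSO cells. Their sum was 37.7 and 50.4 in GW3965 cells and 35.6 and 46.5 in DMSO cells. Of 8 measured macrophage markers, 7 were lower on replicate b in both groups, with a sum over all 9 listed of 53.7 and 31.4 in GW3965 cells and 46.8 and 28.2 in DMSO cells. That sum follows Cd68, which had 5.53 and 4.76 in GW3965 cells, against 5.30 and 4.54 in DMSO cells. The sums were 78.2 and 36.2 in GW3965 cells and 74.3 and 38.7 in DMSO cells for 7 stellate and fibroblast markers, of which 5 were well above background on all 4 arrays. Of the 6 measured, 2 were lower on replicate b in both groups and 3 higher, with median gaps of 0.08 in GW3965 cells and 0.22 in DMSO cells, and the sums follow Dcn, which had 6.16 and 4.77 in GW3965 cells, against 6.10 and 4.93 in DMSO cells. For 5 cholangiocyte markers, 3 of them well above background on all 4 arrays, the sums were 57.2 and 63.9 in GW3965 cells and 62.5 and 76.2 in DMSO cells. They follow Spp1, which had 5.75 and 5.77 in GW3965 cells, against 5.88 and 6.09 in DMSO cells. Of the 4 measured, 3 were higher on replicate b in both groups and 1 lower. For 7 adipocyte markers, 4 of them well above background on all 4 arrays, the sums were 6.71 and 7.62 in GW3965 cells and 5.84 and 7.30 in DMSO cells. These follow Fabp4, which had 2.50 and 2.81 in GW3965 cells, against 2.28 and 2.73 in DMSO cells. Of the 6 measured, 2 were higher on replicate b in both groups and 2 lower. Between the treatments, 9 of 10 endothelial markers had the higher mean in GW3965 cells, with a median difference of 0.19, and the same median was -0.02 for the hepatocyte markers. With 1 array left out these medians ranged from -0.28 to 0.64 for the endothelial markers and from -0.52 to 0.47 for the hepatocyte markers. Each such fit leaves the replicate letters unequal between the groups, so these ranges also hold the gap between b and a. In such bulk samples fewer cells of a type and less RNA per cell cannot be told apart, and the part of the cell makeup in the gaps of the lipase genes was not tested.

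**Figure D3:**
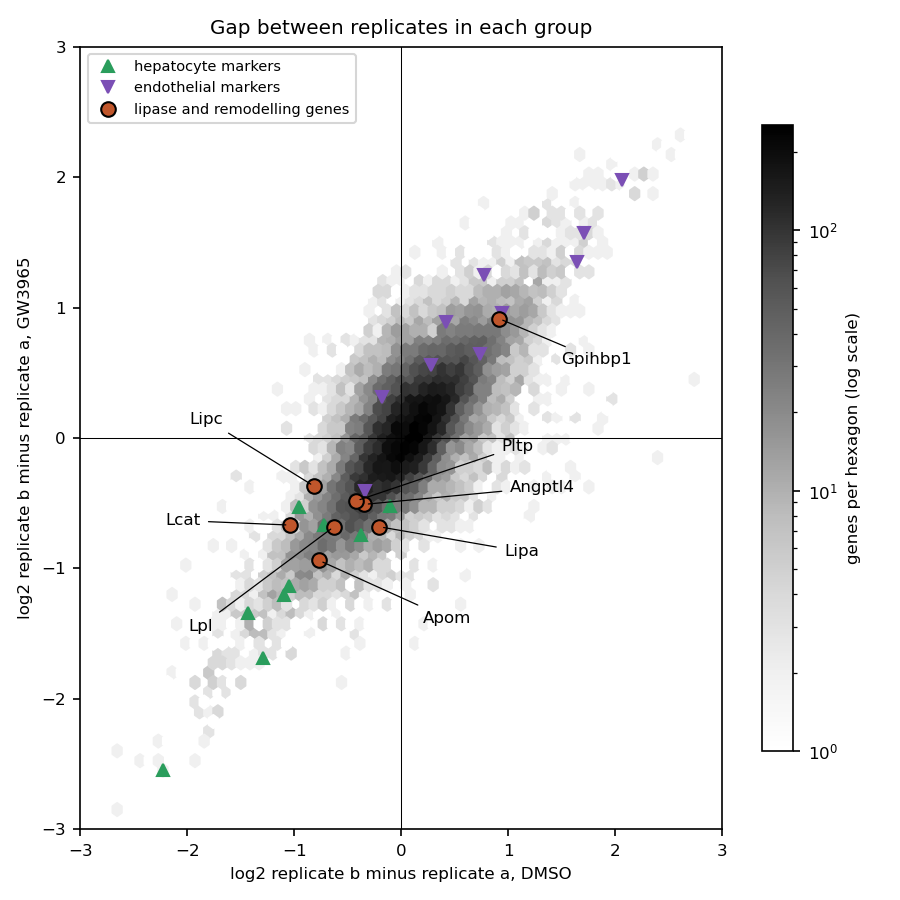
Gap between replicate b and replicate a in GW3965 cells (vertical axis, log2) against the same gap in DMSO cells (horizontal axis, log2) for all measured genes within the plotted range (grey hexagons, log colour scale), the 8 lipase and remodelling genes and the hepatocyte and endothelial markers. Gpihbp1 sits at 0.92 on both axes, among the endothelial markers, and the other 7 genes have gaps below 0 on both axes, as do all 10 hepatocyte markers.

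A broad list of genes around the lipases, drawn up as their partners and regulators, held 16 genes, all measured. None passed an adjusted p of 0.05, 10 had the higher mean in GW3965 cells and 6 the lower, and the median difference was 0.05. Glmp, a lysosomal membrane protein, was the one of the 16 with groups apart, at 4.19 and 4.13 in GW3965 cells, against 3.94 and 3.97 in DMSO cells (difference 0.20 ± 0.18). Over all genes, 9.41% had groups apart with GW3965 higher and 6.55% with GW3965 lower. Those shares stand beside this count and those of the lists below. Lmf1 and Lmf2, of which Lmf1 matures the lipases in the endoplasmic reticulum, differed by 0.06 ± 0.19 and 0.17 ± 0.20. Apoc2, the cofactor of lipoprotein lipase, differed by 0.01 ± 0.33, and Apoa5, an activator of its action, by 0.14 ± 0.25. Pcsk7, a proprotein convertase, differed by 0.14 ± 0.22.

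Among 19 other extracellular and neutral lipases, 13 were measured, 0 passed and 0 had groups apart. Their median difference was 0.11, or 0.06 among genes well above background on all 4 arrays, which leaves out Pnlip and Pnliprp1. Pnpla3, a lipid droplet protein and known target of SREBP-1c, had -2.35 and -3.56 in GW3965 cells, against -3.43 and -4.66 in DMSO cells (difference 1.09 ± 0.59, or 0.47 to 1.70 with 1 array left out). The lower GW3965 array lay between the DMSO arrays. Pnlip, pancreatic lipase, had -2.67 and -3.05 in GW3965 cells, against -5.47 and -2.54 in DMSO cells, and was well above background on 3 of 4 arrays. Its difference of 1.15 ± 0.98, like that of 0.90 ± 0.85 for its relative Pnliprp1, also well above background on 3 of 4 arrays, came from DMSO replicate a, and without that array the differences were -0.32 for Pnlip and -0.36 for Pnliprp1. Pla2g6, a phospholipase inside the cell, differed by 0.18 ± 0.21.

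The other genes of HDL remodelling and uptake held 15 genes, all measured, with a median difference of -0.01. The mean was higher in 6 and lower in 9, and Abca1 and Abcg1 were the 2 with groups apart. Pon3, an HDL-bound lactonase, differed by -0.19 ± 0.21, and Cd36, a receptor for fatty acids and modified lipoproteins, by -0.20 ± 0.24. Of 13 genes of lipoprotein uptake and heparan sulfate, all measured, 0 had groups apart, with a median difference of 0.06. Ndst1 and Hs2st1, which sulfate the heparan chains that hold lipases and remnants at the cell surface, differed by 0.23 ± 0.21 and -0.15 ± 0.21. The 17 genes of lysosomal lipid handling, the surroundings of Lipa, had a median difference of -0.004. Groups were apart in 2 of them, with GW3965 higher, against 9.41% of all genes. Lamp1, a lysosomal membrane protein, differed by -0.12 ± 0.20, and Ctsd, a lysosomal protease, by 0.10 ± 0.20.

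Of the other LXR targets, 12 of 16 measured had the higher mean in GW3965 cells and 4 the lower. Of these 16, out of 17 listed, 9 had groups apart with GW3965 higher and 1 with GW3965 lower, and 8 had an unadjusted p under 0.05 by limma, all with the higher mean in GW3965 cells. Their median difference was 0.80, and 0 of 16 passed an adjusted p of 0.05. The 16 include Abca1, Abcg1 and Srebf1, so these counts and this median are not independent of the treatment check. The differences ran from -0.21 to 2.58. Lpcat3, which builds polyunsaturated phospholipids, had 4.26 and 4.54 in GW3965 cells, against 3.42 and 3.29 in DMSO cells (difference 1.05 ± 0.21). Members of that list, Abca1 and Abcg1 among them, also count in the HDL list. The 15 measured PPAR targets, the set to which Angptl4 belongs by its regulation, had a median difference of -0.03. Groups were apart in 1 with GW3965 higher and 1 with GW3965 lower, against 9.41% and 6.55% of all genes. Replicate b was lower in both groups for 14 of 15, against 31.8% of all genes. Pdk4, a kinase that restrains glucose oxidation, differed by 0.27 ± 0.18 and Cpt1a, which admits fatty acids to mitochondria, by -0.22 ± 0.23. Plin2, a lipid droplet coat protein, differed by 0.16 ± 0.27 and Acot1, an acyl-CoA thioesterase, by 0.23 ± 0.39.

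**Figure D4:**
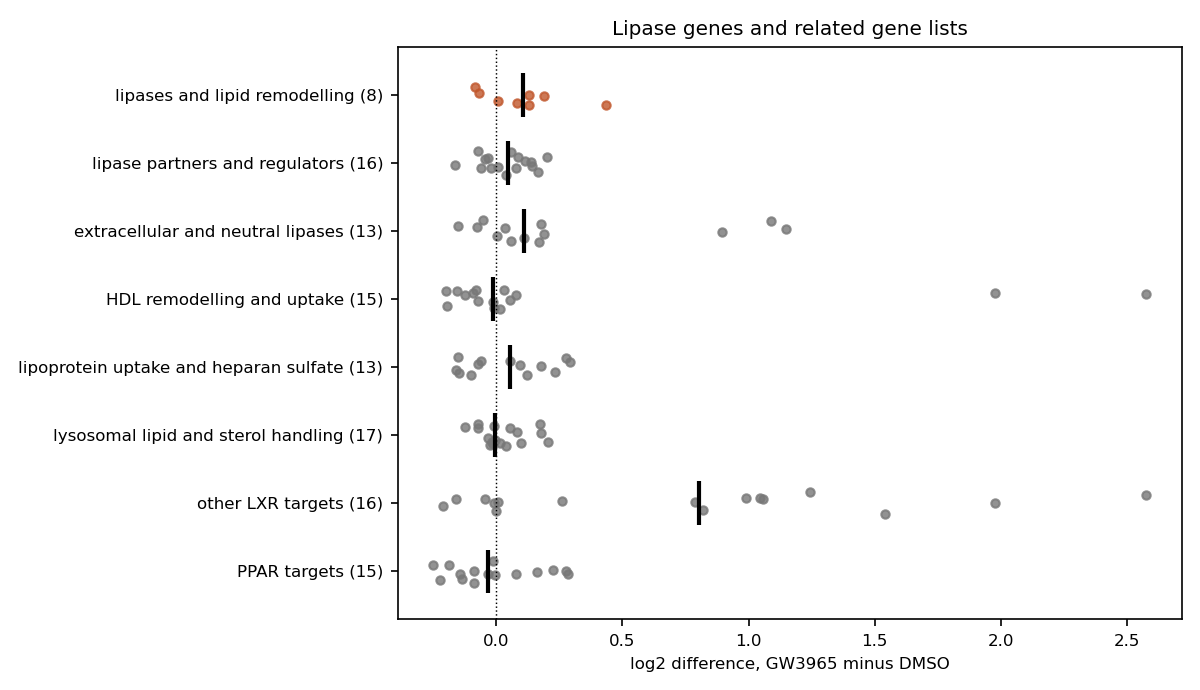
Log2 difference, GW3965 minus DMSO (horizontal axis), of every measured gene in each list, one point per gene with a bar at the list's median and the number measured in parentheses. The lipase and remodelling genes lie between -0.08 and 0.44. The other LXR targets, with Abca1, Abcg1 and Srebf1 among them, have a median of 0.80.

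The genes whose pattern over the 4 arrays was most like that of Lpl, by the root mean square distance between centred log2 values among 14651 genes, were Clec2h at 0.058, Slc9a3r1 at 0.066 and Gstm7 at 0.067, against a median distance of 0.44. For Pltp they were Gpsm3 at 0.013, Ptpn14 at 0.016 and Jak3 at 0.024, against a median of 0.31. With 4 arrays these distances are a description.

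Promoter windows from RefSeq (GRCm38.p6), each of 250 bases before and 50 after a start, were found for 5 of the 9 genes, as 6 windows of Apom, Lcat, Lipa, Lipc and Pltp. The hexamer AGGTCA, to which LXR and related receptors bind, was searched on both strands without mismatch. It was in 1 of 6 windows, with 2 copies at Lipc, against 16.26% of 32851 windows. A pair of such hexamers in the same direction 4 bases apart, the arrangement named DR4 for LXR, with at most 1 mismatch in each, was in 0 of 6 windows, against 1.75% of all. The same pair 1 base apart, named DR1, was in 1 of 6 windows, against 2.396%. It lies in the Lipc window chr9:70934759-70935058, on the strand opposite to the gene, and reads agctcatagttca. The match is a description of these letters, and windows without one say nothing of more distant sequence.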

How the data were processed

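The 4 arrays of Agilent design 028005 analysed were 2 from GW3965 cells and 2 from DMSO cells. Per the file headers, the authors' deposited values are 1-colour signal intensity on a linear scale, background-corrected and not scaled between arrays, from Feature Extraction 10.7.3.1, while the submitters' processing notes name 11.5.1.11. The value table deposited by the authors differed from that processed intensity by at most 0. Each array's 75th percentile of log2 processed signal was subtracted, outlier spots were left out, spots of a probe were averaged, and a probe was kept if either group's 2 arrays both read it well above background. The brightest probe stood for a gene. RefSeq accessions named 26762 probes, and 28919 kept the files' names. Groups came from the labels and were tested by limma 3.58.1 under R 4.3.3 (data.table, version 1.17.8), without a block, two-sided, with 2.72 prior and 2 residual degrees of freedom. The procedure was also tested on simulated arrays with independent noise. That simulation held no gap shared by a replicate letter, so it says nothing of the fit under such a gap. All 4 arrays share 1 slide and 1 scan, and their number limits the precision. The alternatives were quantile normalization, median centring, normexp with an offset of 50, the deposited values, other filters, the mean of a gene's probes, a trend or robust prior, the replicate letter as a block, and each array left out.

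The genes and lists were chosen with earlier results of these data known. The text names every lipase and remodelling gene, Abca1, Abcg1 and Srebf1, up to 4 genes with the smallest p of each related list and the 3 genes nearest to Lpl and to Pltp, and other list genes were named after their values were seen. Some of the genes the rule names are not reported here. Figures were drawn with matplotlib 3.10.9.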

Additional observations from a re-analysis of the deposited data

How the results depend on the processing

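Over 15 alternatives, 0 of 134 values of the lipase and remodelling probes had an adjusted p under 0.05 by limma, with a lowest of 0.626 for Lpl. With all 4 arrays the sign turned for Lipc alone, at -0.0016 under quantile normalization, -0.042 under median centring and -0.015 under normexp. With each array left out in turn, the difference ranged from 0.10 to 0.78 for the brighter and 0.10 to 1.15 for the dimmer Lpl probe, -0.40 to 0.41 for Lipc, -0.42 to 0.26 for Lipa, -0.32 to 0.19 for Angptl4, -0.33 to 0.59 for Gpihbp1, -0.053 to 0.43 for Pltp, -0.39 to 0.65 for Lcat and -0.39 to 0.55 for Apom. In such fits the lone array of a group is assumed to vary like the other group. Left out in turn, they also gave -0.32 to 2.62 for Pnlip, -0.36 to 2.15 for Pnliprp1 (both upper values set against DMSO replicate a alone, which read neither well above background, and so no measured size), 0.47 to 1.70 for Pnpla3, -0.30 to 0.0029 for Hs2st1, -0.035 to 0.23 for Ctsd, -0.0017 to 0.28 for Pcsk7, -0.41 to 0.014 for Cd36, -0.12 to 0.39 for Apoa5, -0.12 to 0.44 for Plin2 and -0.26 to 0.71 for Acot1. The replicate letter is shared by the groups, but the labels do not say what it marks. A fit with 1 array left out sets unequal letters against each other, so its range also holds the gap between b and a. The gaps between b and a in the groups correlated at r = 0.72 across genes. With the replicate block, 15 genes and 16 probes passed an adjusted p of 0.05, and with the replicate block and a filter on all 4 arrays, chosen after seeing the data, 12 genes and 10 probes did. With the replicate block alone, limma's adjusted p was 0.189 for Abca1, 0.177 for Abcg1, 0.119 for Srebf1, 0.159 for Pnpla3 and 0.711 for Lpl. Lpl was then the 1 of 8 lipase and remodelling genes with an unadjusted p under 0.05 by limma (SE 0.13), against 1333 of all 24637 genes. Its 95% interval thus no longer held 0, and the dimmer probe passed likewise. A count of 1 among 8 is no result about these genes, and that fit has 1 residual degree of freedom. With the added filter the adjusted p was 0.022 for Abca1, Abcg1 and Srebf1 and 0.038 for Pnpla3. Pnpla3 was 0.47 under normexp and 1.75 with the mean of its probes. The medians ranged from -0.35 to 0.36 for the HDL list and -0.37 to 0.40 for the PPAR targets with an array left out. With an array left out, 0 to 1 genes and 0 to 1 probes passed. The count at an unadjusted p of 0.05, 203 of all genes, was 56 under normexp, 536 with no filter, 95 with the filter on all 4 arrays, 115 with an intensity trend, 1286 with the block and that filter, and 416 without DMSO replicate b. Where only the variance model, the block or the number of arrays differs, that is the alternative's own construction, and the cause of the other shifts was not tested. A slide or scan batch was not run, since all 4 arrays share 1 slide and 1 scan. Signal near background limits Lipg, which was well above background on 1 array.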
